A study of Mus musculus with 24 samples.

Results

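KP tumours labelled 1st relapse were compared with parental KP tumours across all genes. KP cells come from a genetically engineered mouse model of lung cancer with floxed p53 alleles, and all KP groups share its engineered alleles. The labels give the groups as Parental KP, 1st relapse KP, 2nd relapse KP, Late relapse KP and Chronic IFNG KP. The series describes the relapse groups as tumours that relapsed after immune checkpoint blockade (ICB), antibodies that release T cells from inhibitory receptors, and the chronic IFNG group as exposed to a low level of interferon gamma. The comparison uses 6 of the 24 libraries, 3 from 1st relapse and 3 from parental tumours, and 15 libraries in 5 KP groups entered the model. Each library came from cells of a tumour taken on day 15 after injection into mice, depleted of red blood cells and sorted as live and CD45 negative, so that CD45-bearing leukocytes were gated out. The sources used here do not name the agent, the interval before relapse, the strain, age or sex of the mice, the site of injection, or whether each relapse group is 1 clone. They call the replicates biological without saying that each came from its own mouse, so p-values measure the spread between these libraries.

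KP tumours are used as a model of lung adenocarcinoma. Such tumours can lose the lung identity set by the transcription factor NKX2-1, and tumours without it are known to take on gastric and gut features under factors such as HNF4A and the FOXA proteins. IFNG binds a receptor made of IFNGR1 and IFNGR2, which signals through the kinases JAK1 and JAK2 to transcription factors of the STAT family. These induce IRF1, and together they turn on guanylate-binding proteins, antigen processing and class I major histocompatibility (MHC) genes, which show peptides to CD8 T cells. Loss of function along this route is a known way for tumours to escape checkpoint blockade.

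The clearest features of the 1st relapse libraries were higher RNA of epithelial junction genes and of fibrillar collagens. Among genes that could be tested, those of the gastric, gut and liver lineage, the interferon-induced GTPases and MHC class I were also mostly higher. Most of the tested GTPases were scarce in parental tumours, and the MHC class I count depended on single libraries. Biglycan, neuregulin 1, prostaglandin synthase 2, HIF1A and most mitochondrially encoded genes had lower RNA. Levels are given as normalised counts, read counts scaled to a common depth and back-calculated from the deposited log2 values, and each difference is 1st relapse minus parental on the deposited log2 scale. That scale is compressed at low counts, so for genes with few reads the log2 difference understates the fold change in normalised counts. A gene was tested where at least 1 KP group reached the level for testing, 144.2 normalised counts, so a gene under it in parental tumours entered through a group where it was high and could hardly be called lower. In sorted bulk cells, more cells of a type and more RNA per cell cannot be told apart. Among 11193 genes tested, 5697 (50.9%) passed limma at an adjusted p under 0.05, of which 2846 (25.4%) were higher in 1st relapse and 2851 (25.5%) lower. The median difference of all tested genes was −0.01. At least 1 log2 unit separated the groups for 346 genes that were higher but for only 48 that were lower. Without regard to the test, 3315 genes (29.6%) had all 3 1st relapse libraries above all 3 parental libraries and 3309 (29.6%) had all 3 below. The estimated depth was 25.9 to 31.4 M (mega) fragments in the parental libraries and 13.8 to 21.6 M in the 1st relapse libraries, and every low count in the 1st relapse group is the less precise for it.

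**Figure D1:**
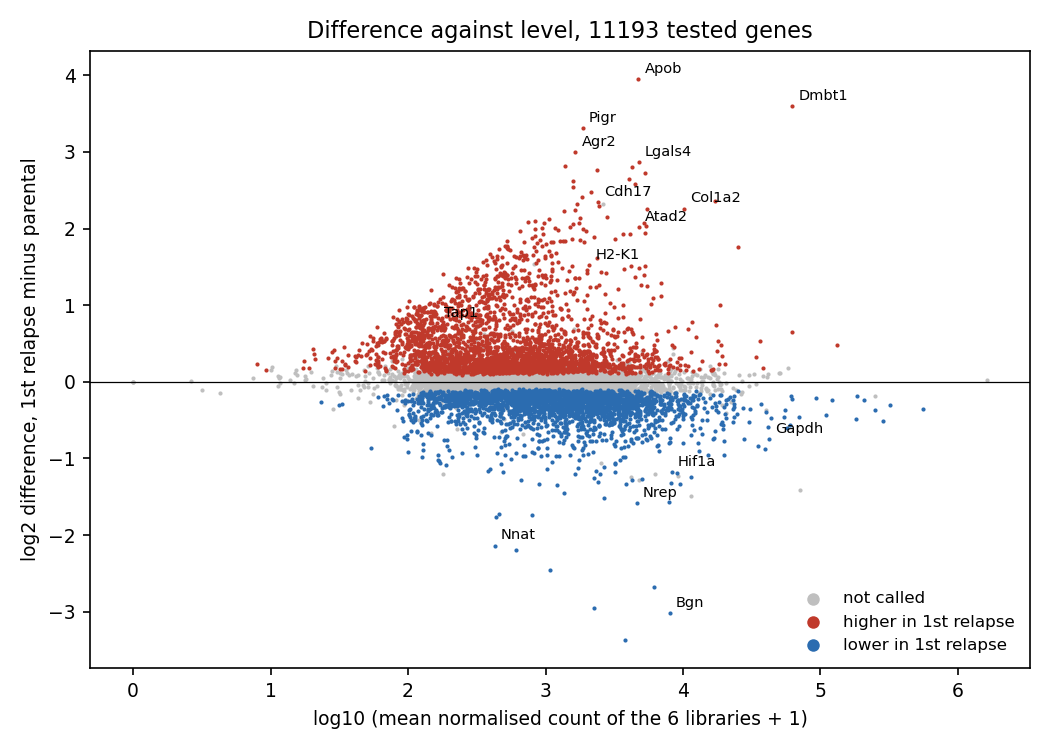
Difference between 1st relapse and parental KP tumours on the deposited log2 scale (vertical axis) against mean level over the 6 libraries (horizontal axis), 1 point per tested gene, with genes past the limma threshold coloured by direction. The points reach further up than down: 346 genes were higher by at least 1 log2 unit and 48 lower, and the labelled genes at the top are mostly epithelial and gastric.

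Tested genes of the gut, gastric and liver lineage list were higher almost throughout. Of 43 members found in the data 26 were tested, of which 22 were higher and 1 was lower. Their median was 0.98 against −0.01 for all genes. Of the 11 that reached the level for testing in parental tumours themselves, 9 were higher and 1 was lower. Apob, which encodes the protein core of liver and gut lipoproteins, had the largest rise of any named gene. It held 282, 172.5 and 124.5 normalised counts in parental libraries 1 to 3 and 10100, 9793 and 7954 in 1st relapse libraries 1 to 3, a 48.1-fold higher mean (log2 difference 3.96 ± 0.16 SE, limma adjusted p = 6.65e-10). The groups did not overlap, and the lowest 1st relapse library lay far above the highest parental one.

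Secreted products of the stomach and mucosa rose together with it. Agr2, a chaperone for mucins in the endoplasmic reticulum, went from 127, 50.2 and 47.9 in the parental libraries to 3167, 2844 and 3667 in 1st relapse (3.00 ± 0.22, limma adjusted p = 9.04e-08). Trefoil factors are small peptides that protect the mucosa. Tff2 held 520.5, 175 and 176 counts in parental and 4329, 3914 and 4970 in 1st relapse libraries (2.76, limma adjusted p = 2.21e-06), and Tff1 held 406.5, 63.8 and 72.3 against 3110, 2684 and 3239 (2.62, limma adjusted p = 3.5e-06). Ctse, a gastric aspartic protease, was 707 ± 234.5 (SD, n = 3) in parental and 7781 ± 393 (SD, n = 3) in 1st relapse tumours, 11-fold higher. Anxa10, Vsig1 and the gastrokine Gkn2 were 3.61-fold, 13.2-fold and 18.1-fold higher. In all, 11 of 13 tested secretory members rose, while the gel-forming mucins Muc5ac (0.12) and Muc5b (0.37) did not pass the test.

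Transcription factors of the same list rose in 7 of 8 cases. Hnf4a, the nuclear receptor that drives liver and intestinal programmes, held 580, 249 and 325 counts in parental and 3355, 3033 and 3113 in 1st relapse libraries (2.13, limma adjusted p = 5.74e-08). Onecut2 (1.13), Foxa3 (0.98), Cdx2 (0.53) and Hhex (0.38) were also higher. Pdx1, a factor of the pancreas and duodenum, was the member that fell, by 0.21 on the log2 scale. Only 5 of the 14 liver members on the list were tested, and 4 of these were higher. Liver members other than Apob included the transferrin gene Trf (2.19-fold higher) and Ambp (28.9-fold higher from a mean of only 7.26 ± 5.16 SD counts), whereas alpha-fetoprotein, Afp, did not pass the test (0.15). Alb, the albumin gene and a defining marker of liver cells, was at 0 in all 3 1st relapse libraries and at 17.7, 1.49 and 1.25 counts in the parental ones.

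The promoter of Apob is shown because Apob had the largest rise and HNF4A is a known activator of it. The HNF4 core CAAAGNNCA, searched on both strands after the rise of Hnf4a had been seen, matches the opposite strand from 103 bases before the Apob start (RefSeq, GRCm38.p6, from 250 bases before to 50 after the start, plus strand, core in capitals).
Apob, chr12:7977427-7977726, plus strand: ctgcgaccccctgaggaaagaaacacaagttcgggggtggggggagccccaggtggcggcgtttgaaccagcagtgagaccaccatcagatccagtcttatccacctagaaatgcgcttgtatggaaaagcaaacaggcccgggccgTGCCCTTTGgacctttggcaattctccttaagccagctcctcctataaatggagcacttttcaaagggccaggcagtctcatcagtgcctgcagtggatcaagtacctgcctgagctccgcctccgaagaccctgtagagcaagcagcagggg
The core was present in 3 of 16 gut, gastric and liver genes with a promoter entry (18.8%), in 2 of 21 epithelial junction genes (9.52%) and in 5.54% of all 8540 tested genes with an entry. The match describes letters in this window and not binding.

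Genes of lung identity moved in both directions. Nkx2-1 stayed below the level needed for testing, with 8.05, 5.39 and 3 counts in parental and 1.28, 1.94 and 0 in 1st relapse libraries, so that it was near absent in both groups. Of 13 tested lung lineage genes, 7 were higher and 2 lower, with a median of 0.23. The higher members included Foxa2 (0.39), the alveolar type 1 genes Aqp5 (0.59) and Pdpn (0.53) and the surfactant gene Sftpd, which rose only from 8.89 ± 4.65 to 81.2 ± 29.5 counts (SD, n = 3). Caveolin 1, Cav1, also an alveolar type 1 gene but made by many mesenchymal cells, fell by 0.79, and Sox2 fell by 0.34. Foxa1 (−0.06), Gata6 (0.07) and Sox9 (0.10) did not pass the test.

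Junction and surface genes of epithelium rose in 27 of 34 cases, with 2 lower and a median of 1.18. Of the 26 that reached the level for testing in parental tumours themselves, 19 rose and 2 fell. Epcam, the epithelial cell adhesion molecule, held 635, 725 and 914 counts in parental and 6826, 6779 and 8497 in 1st relapse libraries (9.72-fold, 2.64 ± 0.17, limma adjusted p = 2.97e-08). Cdh1, E-cadherin, the core of adherens junctions, went from 4494, 3288 and 3631 to 9923, 9328 and 10916 (1.29, limma adjusted p = 3.12e-07). The groups were apart by more than their spread for both genes. Cldn2, the claudin of leaky epithelia, was 8.66-fold higher, and the brush-border genes Cdh17 and Vil1 were 9.16-fold and 10.7-fold higher. Prom1, a protein of apical membrane protrusions, and the surface mucin Muc1 were 9.54-fold and 11.5-fold higher.

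Every tested epithelial transcription or splicing factor of that list rose, namely Ehf (2.07), Elf3 (1.98), Esrp1 (1.21) and Esrp2 (1.07). Desmosome members rose in 6 of 7 cases, with Dsp at 1.82 and Dsg2 at 1.46. Cldn18, a tight junction claudin of both lung and stomach, went the other way, from 888, 1017 and 619 parental to 20.1, 35.7 and 32.8 1st relapse counts (28.5-fold lower, −1.76, limma adjusted p = 1.83e-08). The desmosomal plakophilin Pkp1 was also lower (−0.68), while Tjp1 (−0.06) and F11r (0.02), both junction genes of many cell types, did not pass the test.

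**Figure D2:**
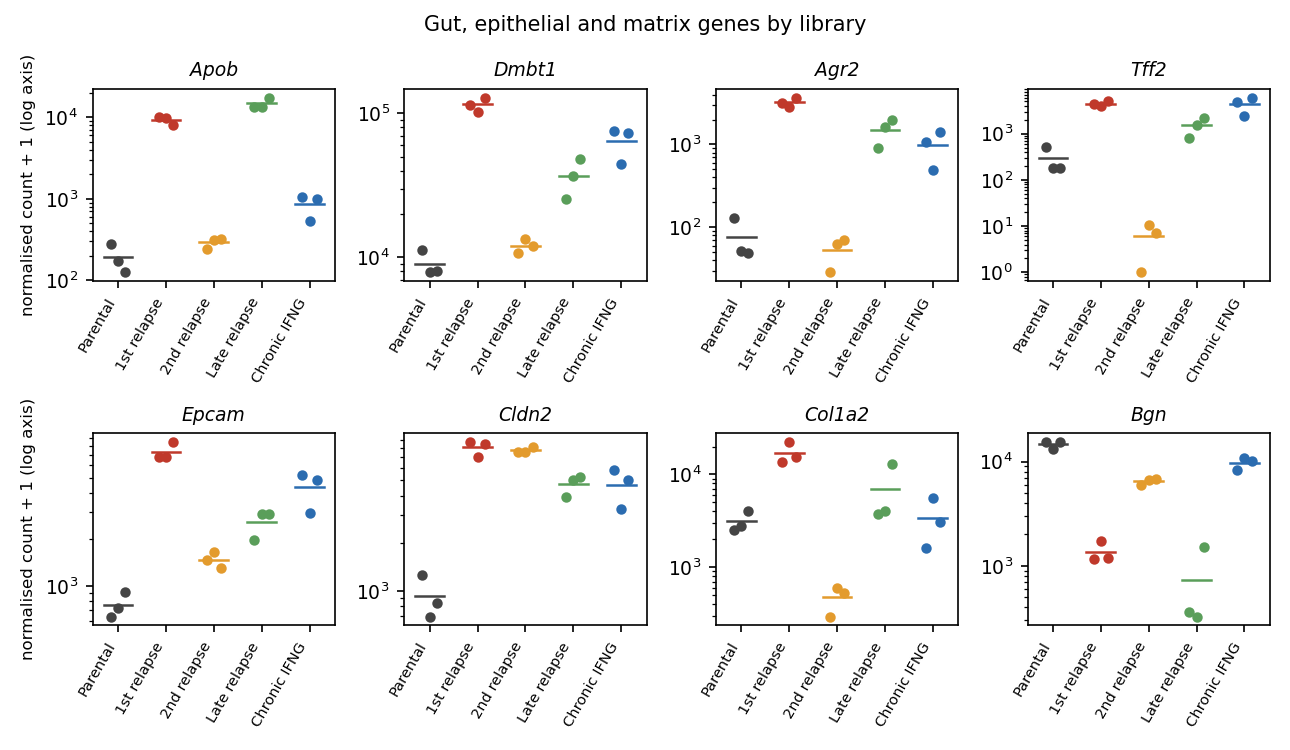
Normalised counts plus 1 on a log axis for 8 genes in each of the 15 KP libraries, with a bar at each group mean. Apob, Dmbt1, Agr2, Tff2, Epcam and Cldn2 had all 3 1st relapse libraries above all 3 parental libraries, Col1a2 also did, and Bgn had all 3 below.

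Several other surface and secreted genes of mucosal epithelium were among the 15 largest rises. Dmbt1, a secreted scavenger-receptor protein of mucosa, held 11242, 7886 and 8009 counts in parental and 114426, 102527 and 127899 in 1st relapse libraries (3.60 ± 0.22). Pigr, which carries dimeric antibodies across epithelium and is inducible by IFNG, held 83.7, 27.8 and 24.4 against 3554, 2914 and 4579 (3.31 ± 0.19). Both had groups far apart, with limma adjusted p values of 2.29e-08 and 1.23e-08. The laminin chain Lama3, part of the basement membrane under epithelium, and the sphingomyelinase gene Smpd3 completed the 15, at 2.54 and 2.41. Galectins, lectins that bind galactosides, split: Lgals4 of gut epithelium (11.1-fold), Lgals2 (22.1-fold) and Lgals9 (7.06-fold) were higher, while the more abundant Lgals1 and Lgals3 fell by 0.53 and 0.45.

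Keratins, the intermediate filaments of epithelium, moved in both directions, with 4 higher and 2 lower of 10. Krt8 and Krt18 were already abundant in parental tumours, at 47314 ± 886 and 40154 ± 631 counts (SD, n = 3), and did not pass the test (0.12 and 0.06). Krt7, of glandular ducts, was 6.08-fold higher, Krt23 was 4.79-fold higher and Krt19 was 1.76-fold higher. The stratified keratin Krt14 rose from 116, 79.2 and 74.7 to 195, 213 and 209.7 counts. The intestinal keratin Krt20 fell by 0.38 and Krt6a, also of stratified epithelium, fell from 343, 258.5 and 330.2 to 14.5, 13.8 and 46 counts. Retinoid genes rose in 9 of 14 cases with 3 lower. The retinaldehyde dehydrogenase Aldh1a3 (5.25-fold), the vitamin A importer Stra6 (1.57) and the transglutaminase Tgm2 (1.22) were higher, and the receptors Rara (−0.25) and Rarg (−0.42) were lower. Complement genes, secreted by epithelium and liver, rose in 8 of 12 cases with none lower, among them Cfi (12.5-fold) and Cfb (6.59-fold). Members at the level for testing in parental tumours numbered 8, of which 4 rose. C3, at 562, 1359 and 1523 counts in parental and 1642, 2001 and 2604 in 1st relapse libraries, did not overlap between the groups but did not pass the test (0.69).

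The receptors of the interferons were higher, and none of the 3 kinases below them passed the test. Ifngr1, the ligand-binding chain, held 1790, 1818 and 1704 counts in parental and 2771, 2806 and 3230 in 1st relapse libraries (0.59, limma adjusted p = 1.88e-05). Ifngr2, the signalling chain, held 820.1, 658 and 699.8 against 1567, 1412 and 1539 (0.73, limma adjusted p = 2.18e-05). All 4 receptor genes passed the test, the type I receptor chains Ifnar1 (0.17) and Ifnar2 (0.16) by small amounts. Jak2 (−0.05) and Tyk2 (0.09) did not pass, and Jak1 held 3019, 2737 and 2860 parental and 2932, 2587 and 3094 1st relapse counts, groups that overlap. Irf1, Irf7 and Irf8 were among the transcription factors that rose. Irf1 went from 1084, 1304 and 1240 to 1528, 1535 and 1426 (0.23, limma adjusted p = 0.00949, or 0.0540 without parental library 1). Irf8, a factor of myeloid cells as well as an interferon target, rose from 10.8, 26.9 and 17.3 to 129, 95.2 and 117.5 counts. None of the 6 tested feedback inhibitors was higher, and Cish fell by 0.18, a call that was lost without 1st relapse library 1, parental library 1 or parental library 3. Over the 21 tested members of this list 8 were higher and 1 lower, beside 25.4% and 25.5% of all tested genes, and without parental library 1 the higher members numbered 5.

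Genes at the end of the pathway were tested as lists of their own. Interferon-induced GTPases, which attack vacuoles of intracellular microbes, rose in 8 of 10 tested cases with none lower, a median of 0.65. Of the 22 on the list 10 were tested, and only 2 of these reached the level for testing in parental tumours (1 higher), while the other 8 entered through a group where they were high. The count is therefore a description of the genes that passed. Gbp2 held 80.6, 127 and 63.2 counts in parental and 338, 292 and 418 in 1st relapse libraries (3.87-fold, 0.72, limma adjusted p = 0.00123). Tgtp1 held 11.8, 18.2 and 7.17 against 196, 93.2 and 250 and its near-identical neighbour Tgtp2 14.1, 21.2 and 0 against 244, 134 and 301, and the division of reads between these genes is uncertain. Ifi47 (0.71), Irgm1 (0.70), Irgm2 (0.59), Igtp (0.49) and Gbp7 (0.44) also rose, while Gbp9 (0.10) and Iigp1 (0.45) did not pass the test. Library 2 of 1st relapse was the lowest of its group for Gbp2, yet it stayed above the parental libraries.

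Promoters of interferon-induced GTPase genes often hold an interferon-stimulated response element (ISRE), bound by IRF-containing complexes, or a gamma-activated site (GAS), bound by STAT dimers. The ISRE core was searched as GAAANNGAA and the GAS core as TTCNNNGAA, on both strands, from 250 bases before to 50 after each start in RefSeq on GRCm38.p6. An ISRE core was present in 7 of the 8 GTPase genes that had a promoter entry (87.5%) and a GAS core in 5 of 8 (62.5%), against 8.34% and 8.24% of all 8540 tested genes with an entry. Both cores were present in 5 of the 8 genes (62.5%) and in 0.785% of tested genes. The promoters of 3 GTPase genes that rose and of the factor gene Irf1 are shown because they lie in front of the genes described above. They are written 5′ to 3′ on the strand of the gene, with the matched cores in capitals.
Tgtp1, chr11:48992197-48992496, minus strand: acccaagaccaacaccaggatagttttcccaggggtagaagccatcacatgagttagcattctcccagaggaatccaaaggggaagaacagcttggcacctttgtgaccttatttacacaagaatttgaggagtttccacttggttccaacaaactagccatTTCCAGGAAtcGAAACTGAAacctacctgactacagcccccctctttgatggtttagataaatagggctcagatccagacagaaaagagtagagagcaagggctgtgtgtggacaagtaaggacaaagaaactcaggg
Gbp2, chr3:142620413-142620712, plus strand: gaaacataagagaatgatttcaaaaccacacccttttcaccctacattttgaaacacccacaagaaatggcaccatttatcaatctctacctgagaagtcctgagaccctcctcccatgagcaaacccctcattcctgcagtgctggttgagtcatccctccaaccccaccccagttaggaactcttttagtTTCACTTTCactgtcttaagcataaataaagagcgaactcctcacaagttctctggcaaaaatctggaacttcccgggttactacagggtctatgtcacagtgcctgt
Igtp, chr11:58199306-58199605, plus strand: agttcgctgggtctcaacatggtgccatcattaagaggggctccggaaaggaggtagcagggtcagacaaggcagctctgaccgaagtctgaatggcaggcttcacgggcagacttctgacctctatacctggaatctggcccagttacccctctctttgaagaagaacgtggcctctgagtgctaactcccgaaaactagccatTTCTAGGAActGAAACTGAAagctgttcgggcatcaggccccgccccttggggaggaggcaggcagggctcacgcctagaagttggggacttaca
Irf1, chr11:53769764-53770063, plus strand: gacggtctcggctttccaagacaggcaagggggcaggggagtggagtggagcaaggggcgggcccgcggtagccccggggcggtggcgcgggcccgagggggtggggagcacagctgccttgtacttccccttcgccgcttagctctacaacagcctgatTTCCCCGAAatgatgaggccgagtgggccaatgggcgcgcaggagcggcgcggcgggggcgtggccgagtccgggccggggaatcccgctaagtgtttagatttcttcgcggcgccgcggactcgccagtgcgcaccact
In Tgtp1 the ISRE core starts 77 bases and the GAS core 88 bases before the start, and in Igtp they start 34 and 45 bases before it. Gbp2 has an ISRE core 58 bases before its start and Irf1 a GAS core 90 bases before the start shown. Another RefSeq entry for Irf1, with a start further into the gene, holds neither core in its window. A match is a string of letters and no measurement of binding. Type I interferon genes held an ISRE core in 8 of 17 cases (47.1%), MHC class I and processing genes in 5 of 16 (31.2%) and gut, gastric and liver genes in 1 of 16 (6.25%).

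MHC class I chains and their loading machinery rose in 13 of 18 tested cases with none lower. Of the 14 members that reached the level for testing in parental tumours themselves, 9 rose, and the other 4, Tap1 and Psmb8 among them, entered through a group where they were high. H2-K1, a classical class I heavy chain, held 563, 962 and 951 counts in parental and 3275, 2414 and 4294 in 1st relapse libraries (4.03-fold, 1.52 ± 0.17, limma adjusted p = 5.6e-06). H2-D1, the other classical heavy chain, held 1944, 2491 and 2186 against 4133, 2912 and 4841 (0.70, limma adjusted p = 0.000835). Reads of near-identical class I genes may be shared among them. B2m, the light chain that all class I molecules need, held 3702, 4135 and 4005 against 3939, 3803 and 4758 and did not pass the test (0.06). Tap1, which pumps peptides into the endoplasmic reticulum, rose from 25.4, 68.7 and 47.9 to 277, 162 and 391.6 (0.77, limma adjusted p = 0.000769), with 1st relapse library 2 lowest of its group. Psmb8, an immunoproteasome subunit, rose to 189 ± 53 from 48 ± 32.3 counts (SD, n = 3), while the proteasome activators Psme1 (0.04) and Psme2 (0.14) did not pass. The count of higher members fell to 6 without 1st relapse library 3 and to 8 without either parental library 1 or parental library 3. All 3 tested MHC class II genes were higher, namely H2-DMb1 (0.78), Cd74 (0.58) and Ifi30 (0.21), but Cd74 overlapped between the groups, at 102, 409.8 and 168 parental and 493, 287 and 751 1st relapse counts. The classical class II genes H2-Aa (42.1, 201.6 and 97.2 against 108, 61.8 and 140) and H2-Ab1 (41.8, 155.9 and 58 against 91.5, 44.8 and 131) were not tested and overlapped as well. For Cd74 the limma adjusted p of 0.0181 became 0.0952 without parental library 1 and 0.0617 without parental library 3. It became 0.0979 without 1st relapse library 3 and 0.0848 under the replicate block fitted to these groups alone. Macrophages and dendritic cells also make class II genes, IRF8 and TNF, and their 14 markers summed to 89.6 to 121.7 CPM (counts scaled to a common library total) in parental and 124.6 to 170.4 in 1st relapse libraries. Among these markers Cd14 rose from 355, 331.5 and 301 to 1290, 1224 and 1458 counts and Mrc1 did not pass the test (−0.29). Parental library 2, the highest parental library for Cd74, also had the most RNA of B and plasma cell markers, at 12.3 CPM against 1.77 and 4.89 in the other parental libraries. The part of these cells in the class II result was not tested.

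**Figure D3:**
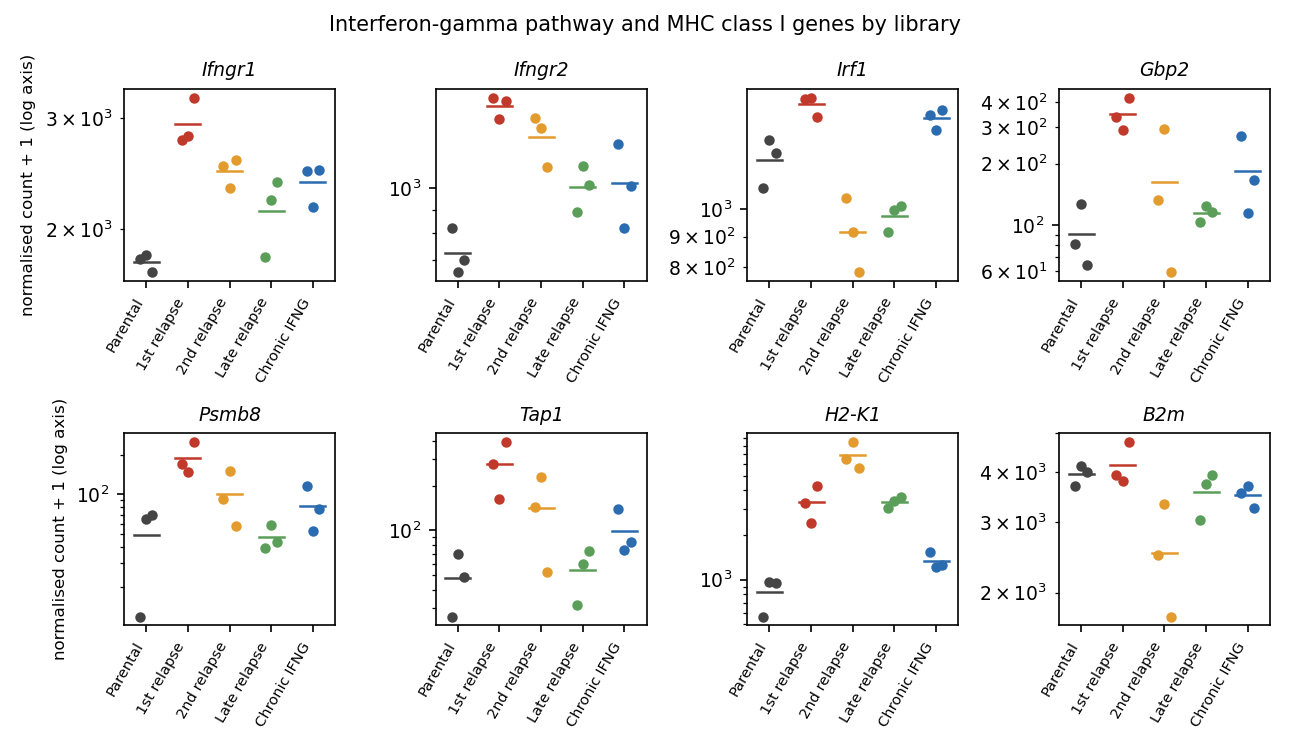
Normalised counts plus 1 on a log axis for 8 interferon-pathway genes in each of the 15 KP libraries, with a bar at each group mean. Ifngr1, Ifngr2, Gbp2, Tap1 and H2-K1 had all 3 1st relapse libraries above all 3 parental libraries, while B2m overlapped between the groups.

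Further interferon targets were mixed. Of 28 other IFNG-induced genes, 15 rose, 3 fell and the median was 0.24. The 22 at the level for testing in parental tumours held 10 rises and 3 falls, beside 25.4% higher and 25.5% lower of all tested genes. The ADP-ribosyltransferase Parp14 (3.43-fold), the adhesion molecules Vcam1 (1.97-fold) and Icam1 (2.54-fold), the galectin-binding protein Lgals3bp (1.98-fold) and the tryptophan tRNA synthetase Wars (1.75-fold) rose. Ido1, the tryptophan-degrading enzyme, held 52.3, 136 and 358.5 counts in parental and 35, 18.3 and 501 in 1st relapse libraries and did not pass (−0.16). Of 18 type I interferon antiviral genes 10 rose and none fell, with Slfn2 (3.58-fold), Ifi27 (2.18-fold) and Ifit2 (0.40) among them. Among the 11 at the level for testing in parental tumours, 6 rose and none fell. The RNA sensors Tlr3 (7.31-fold) and Ifih1 (4.08-fold) and the DNA sensor Aim2 (1.83-fold) rose among 12 sensors, of which 5 were higher and none lower. Of the 9 sensors at the level for testing in parental tumours, 3 were higher.

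Some well-known interferon genes stayed below the level needed for testing and are given as counts only. Cxcl9, a chemokine that draws T cells, held 3.452, 1.496 and 1.885 counts in parental and 93.7, 38.4 and 134 in 1st relapse libraries. Cxcl10 held 8.46, 17.6 and 4.08 against 33.5, 21.4 and 57.5. Gbp5 held 8.14, 12.3 and 6.74 against 36.6, 34.8 and 33.0. In each of these 3 genes the 1st relapse libraries were all above the parental ones, as in 29.6% of all tested genes. Other untested interferon genes were mixed: Gbp6 and Ifit1, for example, did not overlap between the groups either, while Gbp4, Psmb9 and Nlrc5 did. Gbp4 held 12.8, 53.7 and 12.7 against 17.1, 26.5 and 37.4, and Psmb9 7.51, 41.8 and 29.3 against 36.5, 36.6 and 56.6. Nlrc5, an activator of class I genes, held 22.2, 100.3 and 45.4 against 205, 60.1 and 155, so that the groups overlapped. Cd274, which encodes PD-L1, held 31.9, 38.6 and 34.3 against 46.8, 57.9 and 44.3 counts, without overlap.

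Checkpoint ligands and adenosine enzymes rose in 7 and fell in 4 of 13 tested cases. Among the 9 at the level for testing in parental tumours, 4 rose and 4 fell. Lgals9, a ligand of TIM-3, held 161, 108 and 108 counts in parental and 903, 822 and 935 in 1st relapse libraries (1.35, limma adjusted p = 1.59e-07). Ceacam1, an adhesion molecule of epithelium that also binds TIM-3, held 254, 192 and 237 against 1121, 1062 and 1357 (1.32, limma adjusted p = 1.42e-07). Nt5e, the CD73 enzyme that makes adenosine, was 1.93-fold higher, and Ulbp1, a ligand of the activating receptor NKG2D, 2.08-fold higher. Cd276 (−0.43), Lgals3 (−0.45), Pvr (−0.18) and Hmgb1 (−0.15) were lower.

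Chemokines and cytokines rose in 8 and fell in 4 of 17 tested cases. The 11 at the level for testing in parental tumours held 4 rises and 4 falls. Cxcl5, which attracts neutrophils, held 108, 108 and 91.6 counts in parental and 916, 757 and 1012 in 1st relapse libraries (1.44, limma adjusted p = 3.91e-05). The membrane-bound chemokines Cx3cl1 (3.18-fold) and Cxcl16 (3.11-fold) rose, and Tnf rose from 14.5, 10.4 and 9.5 to 207, 233 and 217 counts. The growth factor Csf2 fell by 0.32, and without 1st relapse library 3 the lower members numbered 2. Members of the NF-kB and TNF list rose in 11 and fell in 4 of 27 cases: the receptor Tnfrsf1b (0.82), the nuclear regulator Nfkbiz (0.77) and the inhibitor of apoptosis Birc3 (0.71) were higher, and Tnfaip2 (−0.71) was lower. Ptgs2, which makes prostaglandins and is the COX-2 gene, fell from 5378, 5465 and 6305 to 1950, 1898 and 1988 counts (2.94-fold, −1.33, limma adjusted p = 1.74e-06). Its partner synthase Ptges (0.33) and the prostaglandin exporter Abcc4 (0.94) were higher, in a list of 10 prostaglandin genes with 4 higher and 3 lower.

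Among 30 cell death genes 9 rose and 8 fell, near the 25.4% and 25.5% of all tested genes. Gsdmd, the pore-forming protein of pyroptosis, was 2.88-fold higher, and Casp1, which cuts it, rose from 3.9, 20.4 and 17.4 to 144, 139 and 180.3 counts. The BCL2-family killer Pmaip1 was 2.22-fold higher and the survival gene Bcl2l1 fell by 0.50. The necroptosis kinases split, with Ripk3 at 0.53 and Ripk1 at −0.36, and their effector Mlkl at −0.35. Without parental library 3 the count of lower members was 4.

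**Figure D4:**
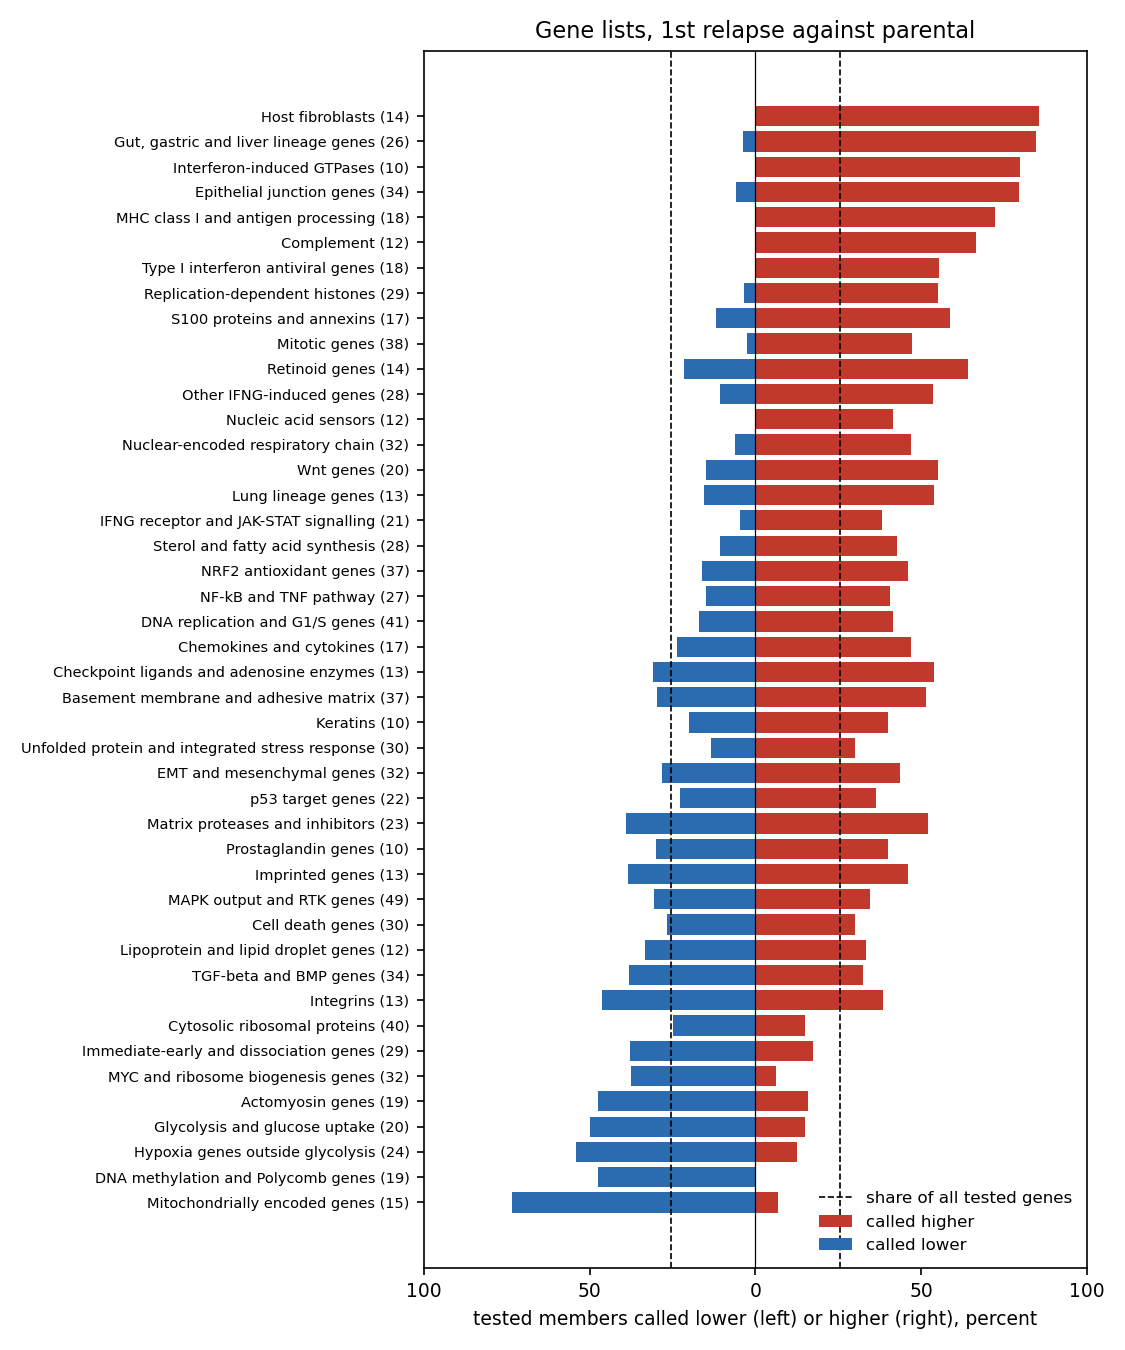
Share of tested members called higher (bars to the right) and lower (bars to the left) in 1st relapse for each gene list with at least 10 tested members. Dashed lines mark the 25.4% higher and 25.5% lower over all tested genes; fibroblast markers and gut, gastric and liver, interferon-induced GTPase and epithelial junction genes extend furthest to the right, and mitochondrially encoded genes furthest to the left.

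Fibrillar collagens and their partners rose while several mesenchymal genes fell. Col1a2 held 2516, 2796 and 4077 counts in parental and 13710, 22394 and 15452 in 1st relapse libraries (5.49-fold, 2.26 ± 0.41, limma adjusted p = 0.000368). Col1a1, its partner in type I collagen, held 1440, 1425 and 2635 against 7700, 11185 and 8068 (2.03, limma adjusted p = 0.000407). Library 2 of 1st relapse was the highest for both. Postn, periostin, was 6.75-fold higher, Col3a1 3.46-fold, Col5a2 4.91-fold, the crosslinking enzyme Lox 7.92-fold, and the collagen receptor Ddr2 11.5-fold. The contractile genes Tagln (1.23), Mylk (1.13) and Acta2 (1.06) rose, against 9 lower and 3 higher over the 19 actomyosin genes, where the nonmuscle myosin Myh9 fell by 0.61.

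These genes are also markers of fibroblasts, which carry no CD45 and pass the sort. Of the 15 fibroblast markers on the list, 14 were tested, 12 were higher and none was lower, with a median of 0.80. Among the 11 at the level for testing in parental tumours, 9 were higher and none was lower. Summed, the 15 made up 746.5 to 1156 CPM in parental libraries and 3105 to 4365 in 1st relapse libraries. None was at 0, and Pdgfra, a defining fibroblast receptor, held 138, 149 and 234 parental and 669, 778 and 682 1st relapse counts. Their part in the rise of collagens was not tested. Pericyte markers summed to 17.4 to 24.4 against 23.8 to 39.75 CPM. Endothelial markers summed to 154 to 171.7 against 176.2 to 198.6 CPM and were mostly Flt1, with Cdh5 at no more than 22.5 counts in any of the 6 libraries. Leukocyte markers summed to 85.3 to 121.8 against 32.8 to 54.8 and were mostly Cd53, a tetraspanin of leukocytes that fell from 1723, 2108 and 1989 to 681.5, 357 and 438 counts. The other leukocyte marker that was tested, Ptpn18, was called higher, at 19.9, 52.9 and 20.7 parental and 229.5, 169 and 145.5 1st relapse counts. Ptprc, which encodes CD45 itself, held 43.5, 219 and 50.7 against 90.9, 26.9 and 37 counts, so that the groups overlapped. No marker of neutrophils, T and NK cells or B cells reached the level for testing, and T and NK markers summed to 4.30 to 12.2 CPM in parental and 2.38 to 3.99 CPM in 1st relapse libraries.

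Over 32 genes of epithelial-mesenchymal transition, 14 rose and 9 fell. Of the rises, 9 were among the 13 matrix members, none of which fell. Of 6 transcription factors 3 were lower: Zeb2 (−0.70), Prrx1 (−0.44) and Twist2 (−0.43), and Twist1 was higher (0.19). Vim, the mesenchymal intermediate filament, fell from 81380 ± 2742 to 59278 ± 4469 counts (SD, n = 3; −0.46), and the receptor kinase Axl (−0.64), Cdh2 (−0.48), fibronectin Fn1 (−0.43), tenascin Tnc (−0.62) and the fibronectin receptor Itga5 (−0.69) were lower.

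Matrix genes outside the fibrillar collagens were divided as well. Bgn, biglycan, a small proteoglycan of matrix, had the largest fall of any protein-coding gene named by the ranking. It held 15336, 13175 and 15448 counts in parental and 1164, 1738 and 1182 in 1st relapse libraries (10.8-fold lower, −3.02 ± 0.26, limma adjusted p = 3.56e-07). Its relatives Dcn (0.97) and Lum (0.69) were higher. Tgfbi, a matrix protein induced by TGF-beta, fell 2.68-fold from 11903, 12694 and 11015 to 4022, 5002 and 4264 counts. Chains of the general basement membrane, Col4a1 (−0.95), Col4a2 (−0.90), Lamb1 (−0.96), Lamc1 (−0.61) and Nid1 (−0.63), were lower. The epithelial laminin chains Lama3 and Lamb3 (1.24) were higher, with Lama3 rising from 246, 115 and 161 to 2979, 2736 and 3271. Over 37 such genes 19 rose and 11 fell, or 14 and 11 of the 32 at the level for testing in parental tumours.

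Integrins followed no single direction, with 5 higher and 6 lower of 13, or 5 and 3 under quantile normalisation. The collagen-binding chains Itga1 (1.71) and Itga2 (1.03) and the epithelial chains Itgb6 (1.26) and Itgb4 (0.60) rose, while Itgb1, the shared beta chain, fell by 0.40. Proteases and their inhibitors rose in 12 and fell in 9 of 23 cases. The 17 at the level for testing in parental tumours held 7 rises and 9 falls. Timp3, an inhibitor of matrix metalloproteases, was 4.28-fold higher, and Adam19 was 5.29-fold lower, from 813, 849 and 811 to 191.5, 139.6 and 137 counts. Ctsl, the lysosomal protease cathepsin L, was also 2.5-fold lower.

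Several growth factor receptors of epithelium rose. Erbb3, a kinase-impaired partner of ERBB2, held 455, 482 and 609.5 counts in parental and 3320, 2982 and 3972 in 1st relapse libraries (1.98, limma adjusted p = 7.4e-08). Its ligand Nrg1, neuregulin 1, went from 2317, 2027 and 2251 to 509, 576 and 460 (4.27-fold lower, −1.44, limma adjusted p = 1.83e-08). For both genes the groups were apart by more than their spread. Egfr (3.05-fold), Erbb2 (2.06-fold) and Mst1r (10.2-fold) were higher too, and so was the AXL ligand Gas6 (12-fold) while Axl itself fell. Output genes of growth factor signalling did not move in 1 direction: Dusp6 (0.07) and Dusp4 (0.07) did not pass the test, Etv4 (0.34) and Spry1 (0.71) were higher, and Fosl1 (−0.35), Spry2 (−0.32) and Dusp5 (−0.32) were lower. Over 49 members 17 rose and 15 fell, or 15 and 16 after median centring, beside 25.4% higher and 25.5% lower of all tested genes. The 43 at the level for testing in parental tumours held 12 rises and 15 falls.

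TGF-beta and BMP ligands were divided, with 4 higher and 4 lower of 9. Bmp7 went from 140.5, 132 and 139 to 1727, 845 and 1310 counts (1.65), and Bmp2 (0.88) was higher. Id2 (3.64-fold), Id1 (3.52-fold) and Id3 (3.14-fold), BMP targets that block basic helix-loop-helix factors, rose, and Id4 (0.09) did not pass the test. The BMP antagonist Grem1 fell by 0.87. TGF-beta genes moved in both directions, with the receptor Tgfbr2 higher (0.70) and Tgfbr1 lower (−0.72). The matrix-bound TGF-beta carriers split likewise, with Ltbp2 at 1.43, Ltbp1 at −0.80 and Ltbp4 at −0.81. The list of 34 held 11 higher and 13 lower members, or 6 and 13 among the 27 at the level for testing in parental tumours.

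Wnt genes rose in 11 and fell in 3 of 20 tested cases. Among the 13 at the level for testing in parental tumours, 5 rose and 3 fell. Wnt5a, a ligand of the non-canonical route, fell from 3192, 3479 and 3498 to 887.5, 1453 and 1093 counts (−1.25, limma adjusted p = 8.52e-07), and the antagonist Dkk2 was 2.84-fold lower. Wnt7a (0.81), the antagonist Sfrp1 (1.19) and the canonical targets Lgr5 (0.70) and Rnf43 (0.58) were higher. Lgr5 remained scarce, at 233 ± 64.6 counts (SD, n = 3) in 1st relapse tumours. Sfrp1 and Sfrp2 (0.58) are also products of fibroblasts, whose markers were higher here.

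Genes of cell division were modestly higher, by counts that depended on single libraries. Of 38 mitotic genes 18 rose and 1 fell, with a median of 0.17, beside 25.4% and 25.5% of all tested genes. Mki67 held 3685, 3741 and 3219 counts in parental and 5295, 5033 and 4915 in 1st relapse libraries (0.46), and Top2a, the topoisomerase of mitotic chromosomes, 4127, 3850 and 3316 against 5874, 5237 and 5004 (0.46). The spindle kinesin Kif23 (0.49) and the kinase Aurkb (0.40) also rose. Without 1st relapse library 1 the higher members numbered 11, and without parental library 3 they numbered 12. Replication and G1/S genes rose in 17 and fell in 7 of 41 cases, with 11 higher without parental library 3. Ccnd2 was 1.7-fold higher, Ccnd1 (−0.07) did not pass, and E2f2 (−0.51) and E2f8 (−0.56), of which E2F8 is a repressor, were lower. Replication-dependent histones, which share much sequence, rose in 16 of 29 cases with 1 lower.

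Ribosome biogenesis did not rise with them. Of 32 MYC and ribosome biogenesis genes, 2 rose and 12 fell, and the lower members numbered 7 without 1st relapse library 1, 1st relapse library 2 or parental library 1. Nucleolin, Ncl, fell by 0.69, and Gnl3 and Wdr43 fell by 0.30 and 0.42. Myc itself held 2268, 1809 and 2175 parental and 1918, 1922 and 1911 1st relapse counts and did not pass (−0.09), whereas Mycn rose from 21.3, 8.49 and 10.7 to 143, 153 and 191. Cytosolic ribosomal protein genes had 6 higher and 10 lower of 40, a balance that turned to 14 higher and 5 lower under quantile normalisation. Leaving out a library gave 1 higher member without 1st relapse library 3, 2 without parental library 1 or 3, and 6 lower members without 1st relapse library 2.

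Energy genes fell in part. Mitochondrially encoded genes were lower in 11 of 15 cases, a median of −0.51, and mt-Nd3 was the only called member that was higher, a call lost without parental library 1. They made up 2.80 to 3.40% of counts in parental and 2.40 to 2.53% in 1st relapse libraries. mt-Co3, of cytochrome oxidase, was at 51319 ± 9046 and 27965 ± 6202 counts (SD, n = 3). The nuclear-encoded respiratory chain had 15 of 32 members higher and 2 lower, and the higher ones numbered 8 without 1st relapse library 1 and 9 without parental library 3. After median centring 9 were higher and 4 lower. Library makeup differed in other ways too: ribosomal RNA was 0.0094 to 0.043% of counts in parental and 0.025 to 0.188% in 1st relapse libraries, and small nuclear and nucleolar RNA 0.56 to 0.80% against 0.39 to 0.50%. The part of library makeup in the mitochondrial difference was not tested.

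Glycolytic genes fell in 10 and rose in 3 of 20 cases, or 9 and 5 under quantile normalisation. Gapdh held 56381, 47601 and 56065 parental and 33148, 29333 and 32151 1st relapse counts (−0.75), and Eno1 (−0.48) and Pkm (−0.46) fell with it. Slc16a3, the lactate exporter MCT4, went the other way and was 7.49-fold higher. Genes of the hypoxia response outside glycolysis fell in 13 and rose in 3 of 24 cases. Hif1a, the main oxygen-sensing transcription factor, held 11460, 12137 and 11499 against 5243, 4669 and 4681 (−1.18, limma adjusted p = 1.37e-07). Epas1, which encodes HIF2A, rose from 137, 76.5 and 96.1 to 383, 586.5 and 403 (0.86). Ndrg1 (−0.85) and P4ha1 (−0.30) were lower, Car9 (0.84) was higher and Vegfa (0.04) did not pass the test.

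Detoxifying enzymes and lipid genes included several large rises. Of 37 NRF2 antioxidant genes 17 rose and 6 fell, or 10 and 6 of the 30 at the level for testing in parental tumours. The glutathione transferase Gsta4 held 680.3, 426 and 443 parental and 4409, 4080 and 4606 1st relapse counts (2.30), the gut glutathione peroxidase Gpx2 was 16.3-fold higher, and Me1 (3.17-fold), Gstm2 (8.84-fold) and Gclc (2.6-fold) rose. The NRF2 targets Txnrd1 (0.00) and Gclm (−0.04) did not pass, and Hmox1 (−0.95) and the ferritin gene Fth1 (−0.80) were lower. Among 28 sterol and fatty acid genes 12 rose and 3 fell. Squalene epoxidase, Sqle, was 3.35-fold higher, and the fatty acid desaturases Fads2 and Fads1 4.99-fold and 2.18-fold. Abca1, which exports cholesterol, fell 2.38-fold and the droplet coat gene Plin2 fell by 0.73, in a list of 12 lipoprotein and lipid droplet genes with 4 higher and 4 lower.

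Stress and damage genes moved in both directions, to be read beside 25.4% higher and 25.5% lower of all tested genes. The unfolded protein and integrated stress list had 9 higher and 4 lower of 30, with Herpud1 (0.87) and Xbp1 (0.77) higher and Atf4 (−0.51) lower. Without 1st relapse library 2 the lower members of that list numbered 2, and after median centring 7. Of 22 p53 targets 8 rose and 5 fell, where Perp (1.39) is also a desmosome gene, a balance that turned to 6 higher and 8 lower under quantile normalisation. Cdkn1a, the best-known p53 target, did not pass (0.04), and the lower targets numbered 3 without 1st relapse library 1, parental library 1 or parental library 3. Genes that respond within minutes to tissue dissociation fell in 11 and rose in 5 of 29 cases: Fos (0.37) and Jun (0.14) did not pass, Ier5 (−0.55), Klf6 (−0.49) and Hspa1b (−0.63) were lower and Hspb1 (0.82) was higher. The call for Hspa1b was lost without 1st relapse library 1 or 2 or parental library 1 or 3. The higher ones numbered 3 without 1st relapse library 3 or parental library 1.

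DNA methylation and Polycomb genes were lower where they changed. Of 19 tested, 9 fell and none rose, beside 25.5% lower and 25.4% higher of all tested genes. The methyltransferase Dnmt3a (−0.57) and the demethylases Tet3 (−0.42) and Tet2 (−0.37) led the falls. Imprinted genes, expressed from 1 parental copy, split with 6 higher and 5 lower of 13. Among the 8 at the level for testing in parental tumours, 1 was higher and 5 were lower. The other 5, all higher, entered through a group where they were high. Nnat, neuronatin, held 887, 994 and 667 counts in parental and 3.3, 2.7 and 0 in 1st relapse libraries (−2.14, limma adjusted p = 7.18e-10), the nearest to a loss among the named genes. H19 fell from 785, 547 and 775 to 149, 259 and 162 counts. Rian and Meg3, noncoding RNAs of 1 imprinted cluster, were 7.09-fold and 4.5-fold higher, and Peg10 4.05-fold. None of the 32 Hox genes in the table reached the level for testing.

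Genes that changed beyond these lists included some of the largest falls. Nrep, a small neuronal regeneration protein, fell 3.49-fold from 6746, 7123 and 7580 to 1815, 2448 and 1877 counts. Arntl2, a circadian transcription factor, was 3.71-fold lower, and Ppfibp1 (−1.19) and Itpr2 (−1.20), near it on chromosome 6, were lower too. Glp1r, the receptor of the gut hormone GLP-1, was 2.65-fold lower, Pla2g7, a phospholipase, 2.78-fold, Atg9b, of autophagy, 3.11-fold, and the BMP co-receptor gene Rgmb 2.81-fold. Among the S100 and annexin genes 10 of 17 rose, including S100a14 (1.21), Anxa10 (1.35) and Anxa4 (1.09). The small nucleolar RNA genes Rnu3b1 and Rnu3a also appeared in the ranking of falls, but each symbol belongs to 2 gene identifiers at the same place. The pair named Rnu3b1 stood at −3.37 and 1.01 and the pair named Rnu3a at −2.46 and 0.24, so that their directions are uncertain.

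A run of neighbouring genes on chromosome 15 rose as blocks, a pattern noticed after the values were seen. In GRCm38 coordinates, the 6 tested genes from Derl1 to Wdyhv1 (chr15:57869502-58158665) were all higher, with a median of 1.39. The 9 next genes, from Fbxo32 to Ndufb9, had a median of −0.06, with 1 higher and 4 lower. The 7 genes that follow, from Mtss1 to 9930014A18Rik (chr15:58941234-60853778), were again all higher, with a median of 1.24. The edges of these stretches were drawn from the values themselves. Over fixed windows of 25 neighbouring tested genes, the highest of chromosome 15, from Zhx2 to Pvt1, had a median of 0.85, and the 5th and 95th percentiles of all windows were −0.15 and 0.14. The first block holds Atad2, a bromodomain protein of replicating chromatin, at 1592, 1733 and 1389 parental and 8322, 8020 and 7519 1st relapse counts (2.02, limma adjusted p = 7.18e-10). The second holds Sqle, named above, and Washc5 (1.40), of the endosomal WASH complex. Myc, on the same chromosome arm further on, did not pass (−0.09), while its noncoding neighbour Pvt1 (0.85) was higher. The 3 stretches had medians of 0.56, 0.72 and 0.63 in 2nd relapse and 0.06, 0.10 and 0.11 in late relapse tumours against the same parental libraries. DNA copy number was not measured here.

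**Figure D5:**
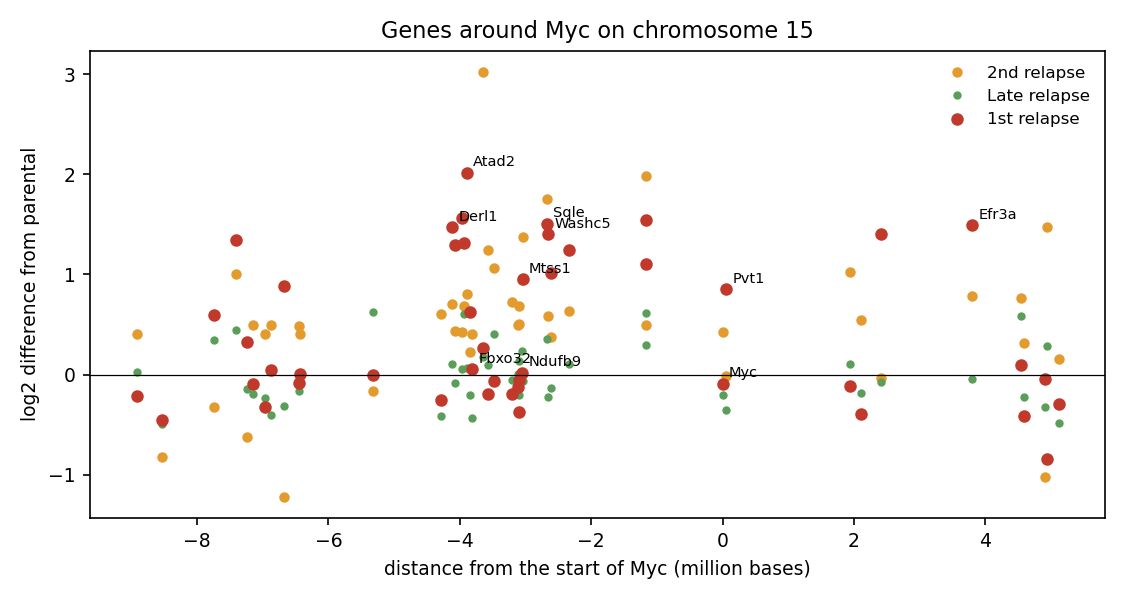
Difference from parental KP on the deposited log2 scale (vertical axis) for tested genes around Myc on chromosome 15, by distance from the start of Myc in megabases (horizontal axis), with separate points for 1st, 2nd and late relapse. In 1st relapse, 6 and 7 neighbouring genes stand at medians of 1.39 and 1.24 on either side of 9 genes at −0.06.

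A milder run lay on chromosome 16, also picked after the values were seen, and runs of lower genes are not described here. Of 40 genes from Paxbp1 to C2cd2 (chr16:91014037-97962598), 24 were higher and 2 lower, with a median of 0.21. The receptor genes Ifngr2, Ifnar1 and Ifnar2 lie in this stretch. Right beside them Il10rb (0.40) and Tmem50b (0.45) were called higher. The next tested genes past Tmem50b, Gart (0.11) and Son (−0.10), were not called, and Paxbp1, at the other end, was called lower (−0.19). Over all of chromosome 16, 47.6% of tested genes were higher and 6.33% lower, and over chromosome 13, 15.6% were higher and 50.4% lower.

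The 1st relapse tumours also differed from each other KP group when set against it directly. Against 2nd relapse KP, 3132 genes (28.0%) were higher and 3835 (34.3%) lower in 1st relapse. Collagens led the higher side: Col3a1 had means of 39178 ± 4526 (SD, n = 3) in 1st relapse and 1063 in 2nd relapse (4.65, limma adjusted p = 2.16e-06), and Sparc (4.29), Col1a2 (4.20), Tff2 (3.94) and Col1a1 (3.76) were next. Fibroblast markers summed to 99.2 to 129.1 CPM in 2nd relapse against 3105 to 4365 in 1st relapse. The lower side was led by the galectin gene Lgals2 (−4.13), the tetraspanin-like Tm4sf4 (−3.90) and the interleukin 5 receptor chain Il5ra (−3.44), followed by the near-identical prolactin-family genes Prl2c3 and Prl2c2. Keratins were lower in 8 of 10 cases, sterol and fatty acid genes in 23 of 28 and glycolytic genes in 18 of 20. Epithelial junction genes were more even, 14 higher and 12 lower of 34.

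Against Late relapse KP, 2626 genes (23.5%) were higher and 2754 (24.6%) lower in 1st relapse. Epithelial junction genes were higher in 26 of 34 cases and MHC class I genes in 12 of 18, with none of the latter lower. Smoc2, a matrix protein, led (2.09, limma adjusted p = 2.18e-09), followed by Atad2 (1.95), Col4a5 (1.77), Dmbt1 (1.67) and Washc5 (1.62). Crisp1 (−3.03), Pdyn (−2.66), Il5ra (−2.61), the small nuclear RNA gene Rnu1b1 (−2.60) and Cdhr2 (−2.32) were the most strongly lower. Fibroblast markers were higher in 11 of 14 cases and summed to 634.7 to 2718 CPM in late relapse libraries. Mitotic genes were lower in 15 of 38 cases and higher in none, while histones were higher in 23 of 29.

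Against Chronic IFNG KP, 1774 genes (15.8%) were higher and 1695 (15.1%) lower in 1st relapse. Apob (2.86, limma adjusted p = 1.77e-08), Ddr2 (2.28), Col1a2 (2.27), Atad2 (2.14) and Col3a1 (1.97) led the higher side. The lower side held Bgn (−2.45), Atg9b (−1.38), Ndrg1 (−1.34) and Hspa1b (−1.24), and the uncertain Rnu3b1. Fibroblast markers were higher in 12 of 14 cases with none lower and summed to 532.1 to 1533 CPM in chronic IFNG against 3105 to 4365 in 1st relapse libraries, and their part in the collagen and Ddr2 differences was not tested. Gut, gastric and liver genes were higher in 17 of 26 cases and lower in 1, and MHC class I genes higher in 10 of 18 with none lower. H2-K1 in 1st relapse differed from chronic IFNG by 1.03 (limma adjusted p = 0.000728), from late relapse by −0.03 (limma adjusted p = 0.897) and from 2nd relapse by −0.95 (limma adjusted p = 0.000252).

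Set against the same parental libraries, the groups give the following differences side by side, and since they share those libraries no agreement between them is read as a result. Epcam was at 2.64 in 1st relapse, 0.67 in 2nd relapse, 1.30 in late relapse and 1.92 in chronic IFNG. Apob was at 3.96, 0.26, 4.59 and 1.10 in the same order, and Gbp2 at 0.72, 0.21, 0.10 and 0.32. Bgn was at −3.02, −1.10, −3.78 and −0.57. The medians over the epithelial junction list were 1.18, 0.84, 0.61 and 0.70, and over the gut, gastric and liver list 0.98, 0.59, 0.83 and 0.60. For the interferon-induced GTPases they were 0.65, 0.41, 0.15 and 0.31. The direct contrasts above give the tests of 1st relapse against each of them.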

How the data were processed

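RNA from CD45-negative tumour cells was sequenced as total RNA with a strand-marking kit and paired 50-base reads, per the labels' protocols. For the authors' processing, the submitters' notes list Salmon 1.8.0, cutadapt 2.9, DESeq2 1.34.0 and the build GRCm38 without their roles. What the authors deposited for KP is 1 table of log2 values, variance-stabilised per the file's title, with a lowest value of 8.172. Normalised counts were back-calculated by inverting that transformation with the lowest value as a count of 0. Low values came out as whole reads (within 0.15) in 72.5 to 79.1% of cases against 30% by chance, short of what a count test needs, and the step gave each library's estimated depth, 13.8 to 32.7 M fragments. Genes with a KP group mean at least 1 log2 unit above the lowest value (144.2 normalised counts) were kept, 11193 of 36040 (31.06%) holding 99.04% of counts. Values were fitted with limma 3.58.1 (R 4.3.3, intensity trend) over all 15 KP libraries, with Benjamini-Hochberg adjustment over all tested genes, and genes were called at an adjusted p under 0.05. The script was tested on simulated data. GENCODE vM21 gave positions and RefSeq GRCm38.p6 gave promoters.

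Named genes were the 15 largest called rises and the 15 largest called falls among those with a group mean at least 3 log2 units above the lowest value, a symbol that is no clone or predicted name, and groups that do not overlap, up to 4 called members per list by size, 13 pathway genes given by name, and 5 each way for the direct contrasts. All other genes named were chosen after their values were seen, as was the HNF4 core. The members and the 58 lists were chosen with earlier results of these data known. Tables of the other cell line were not analysed here. Some genes are not reported here. Same-numbered 1st relapse and parental libraries deviated together (correlations of 0.149, 0.112 and 0.206), though no label says what the numbers share, so the replicate number was also fitted as a block. With 3 libraries against 3, an exact permutation test of a gene cannot go below p = 0.1, and no such test was used. Alternatives were other filters, scalings, variance models, pseudocounts of 10 and 100, the groups alone, and leaving out each library.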

Additional observations from a re-analysis of the deposited data

How the results depend on the processing

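The counts of called genes depended most on the filter. With genes kept only from 3 log2 units above the lowest value, far fewer genes were tested, and 2001 were called against parental tumours (676 higher, 1325 lower), 2452 against 2nd relapse (759 and 1693), 1933 against late relapse (686 and 1247) and 1374 against chronic IFNG (493 and 881). No other alternative moved a count of calls by over 1.5 times. Leaving out 1 library gave 4905 to 5296 calls against parental tumours. Median centring gave 2406 higher and 3537 lower calls, and quantile normalisation 2510 and 3508. With the replicate number as a block 5604 genes were called, and among the named genes Tm4sf4 was lost (limma adjusted p = 0.0691) and Pdyn gained (limma adjusted p = 0.0229).

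Of 215 named genes over 18 alternatives, 3726 values kept direction and side of the threshold, 36 of 8 genes (Cd74, mt-Nd3, Hspa1b, Pdgfrb, Cspg4, Irf1, Tm4sf4 and Col4a5) fell short of it, and 9 newly passed it. A total of 11 values of 7 genes, none called in the main result, changed sign. Jak1 stood at 0.075 under quantile normalisation, and from −0.050 to 0.059 as 1 library was left out, above 0 without 1st relapse library 2 or without parental library 1 (0.029). Quantile normalisation gave 0.024 for Jak2, 0.014 for Sparc and −0.016 for Prl2c2. With 1 library left out, B2m ranged from −0.024 to 0.120 and Rnu1b1 from −0.124 to 0.018, with the changed sign without 1st relapse library 3. Ido1 ranged from −0.608 to 0.103, above 0 without 1st relapse library 1 (0.035), 1st relapse library 2 or parental library 3 (0.091). The cause was not tested. The lower depth of the 1st relapse libraries limits genes with few reads, such as Cxcl9, Ciita and Socs1, which were not tested.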

Other observations

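Beyond the comparisons above, a few values stood out as readings with no test. Rps27 and the nearby-named copy Rps27rt, which share sequence, moved against each other: Rps27 held 122, 266 and 120.3 counts in parental and 3770, 104 and 11410 in 1st relapse libraries, and Rps27rt 8194, 7806 and 7716 against 5401, 7761 and 513. Within 1st relapse the libraries with most Rps27 had least Rps27rt. How reads were divided between the copies was not tested. Hoxa3 stayed below the level for testing at 0.716, 2.60 and 2.03 counts in parental and 19.6, 68.3 and 67.7 in 1st relapse libraries, and Hoxa10 at 0.897, 5.06 and 0.811 against 26.7, 27.7 and 16.8.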
